A study of Mus musculus with 32 samples.

Results

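Tcf7, Lef1, Bach2, Foxo1, Satb1, Bcl6, Id2 and Zeb2, 8 transcription factor genes tied to the naive, stem-like and memory states of T cells and to their opposite, were followed through a mouse model of graft-versus-host disease. The genes were taken by their symbols from the expression table, where all 8 were present among 16741 genes in 31 RNA libraries. Graft-versus-host disease is the attack of donor T cells on the tissues of a transplant recipient, and the study asked how donor regulatory T cells (Treg), which restrain other T cells, hold it down. Donor cells came from C57Bl6 mice, were sorted from spleen and lymph nodes and were sequenced in bulk. The groups were conventional CD4 cells before transplantation (2 libraries), from syngeneic controls with no Treg (3), from Balb/c recipients across a major mismatch with no Treg (4, called allogeneic below) and from such recipients given Treg on day 0 (4, called Treg-treated). CD8 cells were taken in the same way (2, 3, 4 and 4 libraries), and Treg themselves before transplantation (2) and from Treg-treated recipients (3). Titles place the cells after transplantation on day 6, while the series' description speaks of day 8. The strain of the syngeneic recipients, age, sex and conditioning are not given in the sources used here. Nothing there says that libraries of one group came from separate animals or that cells were not pooled, so p-values measure the spread between these libraries, which may be technical.

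In T cells that have not met antigen, TCF1 (the product of Tcf7), LEF1, FOXO1, BACH2 and SATB1 keep the cells quiescent, long-lived and able to recirculate through lymph nodes. When a T cell is activated, these factors are turned down in cells that become effectors and are kept in a minority that can renew itself and form memory. ID2, which blocks the E protein partners of this programme, and ZEB2, a repressor of late effector cells, stand on the other side, while BCL6 holds follicular helper CD4 cells and memory precursors.

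Cd4 was 8722 to 21480.5 in the libraries labelled CD4 and at most 92.8 in those labelled CD8, with 1 exception. CD4 syngeneic replicate JL019-2 held Cd4 at 1659 normalised counts against 14576.5 and 16526 in the other CD4 syngeneic libraries, and Cd3e at 5737 against 14789 to 27910 in the other 30 libraries. Its 12 myeloid marker genes, all present in the table, summed to 3.63e+06, against 920 to 87234 in the other 30 libraries, with Lyz2 at 825480. Its 6 erythroid markers summed to 399456 against at most 54933 elsewhere, and its 8 B cell markers to 1039.7 within the range of the others (168 to 2530). The other CD4 syngeneic libraries held 168 and 202 of the B cell markers. Its NK cell markers summed to 1364 against 50.6 and 53.6 in those libraries, and Cd8a and Cd8b1 to 5116 against 944 and 1150.5. Each comparison was therefore fitted with all 31 libraries and again without this one, and both results are given. All comparisons share 1 estimate of the spread, so this library also widened the error of comparisons it was not part of. Foxp3, the defining factor of Treg, stood at 198 and 442 in the libraries labelled Treg before transplantation and at 978 and 1145 in CD4 cells. The name Treg is that of the titles, and Foxp3 does not bear it out on day 0. The summed level of 5 Treg markers was 51021 to 52759 in the libraries labelled Treg and 9099 to 9700 in CD4 cells on day 0. That sum does not single out Treg. It was 29680 to 65644 in Treg-treated CD4, 30249 to 39951.5 in allogeneic CD4 and 26180.5 to 34336 in allogeneic CD8 cells. In such bulk RNA, fewer cells with a transcript and less of it per cell cannot be told apart.

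The 8 genes lie on mouse chromosomes 11 (Tcf7), 3 (Lef1 and Foxo1), 4 (Bach2), 17 (Satb1), 16 (Bcl6), 12 (Id2) and 2 (Zeb2), and all 8 had promoter sequences in RefSeq (GRCm38.p6, from 250 bases before to 50 bases after each start site). Promoters of 4 genes are shown, since Tcf7, Lef1 and Bach2 fell and Id2 rose from day 0 in CD4 and CD8 cells of allogeneic recipients and in Treg of Treg-treated ones. They are the second of 2 start sites of Tcf7 (chr11:52282546-52282845, minus strand), the fourth of 4 of Lef1 (chr3:131156044-131156343, plus strand), and the single listed start sites of Bach2 (chr4:32417185-32417484, plus strand) and Id2 (chr12:25096043-25096342, minus strand). The Tcf7 and Lef1 windows shown hold matches to the letters below, while Tcf7 start site 1 and Lef1 start sites 1 and 3 held none. The Lef1 and Bach2 windows lie inside the genes, which begin at 131110297 and 32238413. No window covered that beginning of Bach2. Capitals mark exact matches on either strand to the letters CTTTGA (bound by TCF and LEF), GTAAACA (forkhead factors such as FOXO1), CAGGTG (an E-box of E proteins and ZEB factors) and TGACTCA (AP-1 and BACH factors).
Tcf7: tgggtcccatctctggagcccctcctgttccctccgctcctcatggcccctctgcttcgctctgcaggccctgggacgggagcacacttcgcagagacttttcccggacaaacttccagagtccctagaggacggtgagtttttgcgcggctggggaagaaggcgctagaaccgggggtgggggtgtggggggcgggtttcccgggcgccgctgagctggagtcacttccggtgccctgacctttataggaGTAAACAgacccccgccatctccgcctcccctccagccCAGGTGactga
Lef1: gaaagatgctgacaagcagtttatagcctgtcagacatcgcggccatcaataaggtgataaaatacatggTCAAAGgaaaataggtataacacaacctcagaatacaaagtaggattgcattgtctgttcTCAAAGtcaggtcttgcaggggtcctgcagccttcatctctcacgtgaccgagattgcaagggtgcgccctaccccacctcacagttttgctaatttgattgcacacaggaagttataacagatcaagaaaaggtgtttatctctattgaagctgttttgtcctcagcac
Bach2: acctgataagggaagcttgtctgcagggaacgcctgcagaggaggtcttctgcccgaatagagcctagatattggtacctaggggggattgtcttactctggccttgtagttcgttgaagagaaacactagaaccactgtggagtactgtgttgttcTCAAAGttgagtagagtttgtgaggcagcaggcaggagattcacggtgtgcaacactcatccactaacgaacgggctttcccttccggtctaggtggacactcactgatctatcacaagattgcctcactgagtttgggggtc
Id2: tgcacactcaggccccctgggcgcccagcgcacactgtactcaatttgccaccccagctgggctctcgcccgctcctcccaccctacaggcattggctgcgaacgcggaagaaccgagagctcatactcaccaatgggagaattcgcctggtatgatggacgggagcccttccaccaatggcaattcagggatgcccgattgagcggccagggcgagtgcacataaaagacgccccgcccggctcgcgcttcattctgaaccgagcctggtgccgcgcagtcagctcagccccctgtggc
The Tcf7 window held the forkhead letters from base +2 and the E-box from base +40 of the transcript. The Lef1 window held the TCF and LEF letters at -180 and -120, and the Bach2 window held them at -93, all on the opposite strand (read as TCAAAG). None of the 4 motifs was in the windows of Id2 or Foxo1. Elsewhere, CTTTGA stood at -44 of the second Bcl6 start site, TGACTCA at -189 and -132 of the fourth Zeb2 start site, and CAGGTG at +31 of the second Lef1 start site and in the Satb1 windows of start sites 1 (+2) and 3 (-172). The BCL6 letters TTCCTAGAA were in no window of the 8 genes. Such short strings are common: CTTTGA was in 16.0% of 32851 mouse promoters of the same length, GTAAACA in 3.65%, CAGGTG in 20.2%, TGACTCA in 5.20% and TTCCTAGAA in 0.411%. These shares are per window, whereas several of the 8 genes have more than 1 window. No match overlapped one of another motif, and a match is a description of the sequence, not a bound site.

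**Figure D1:**
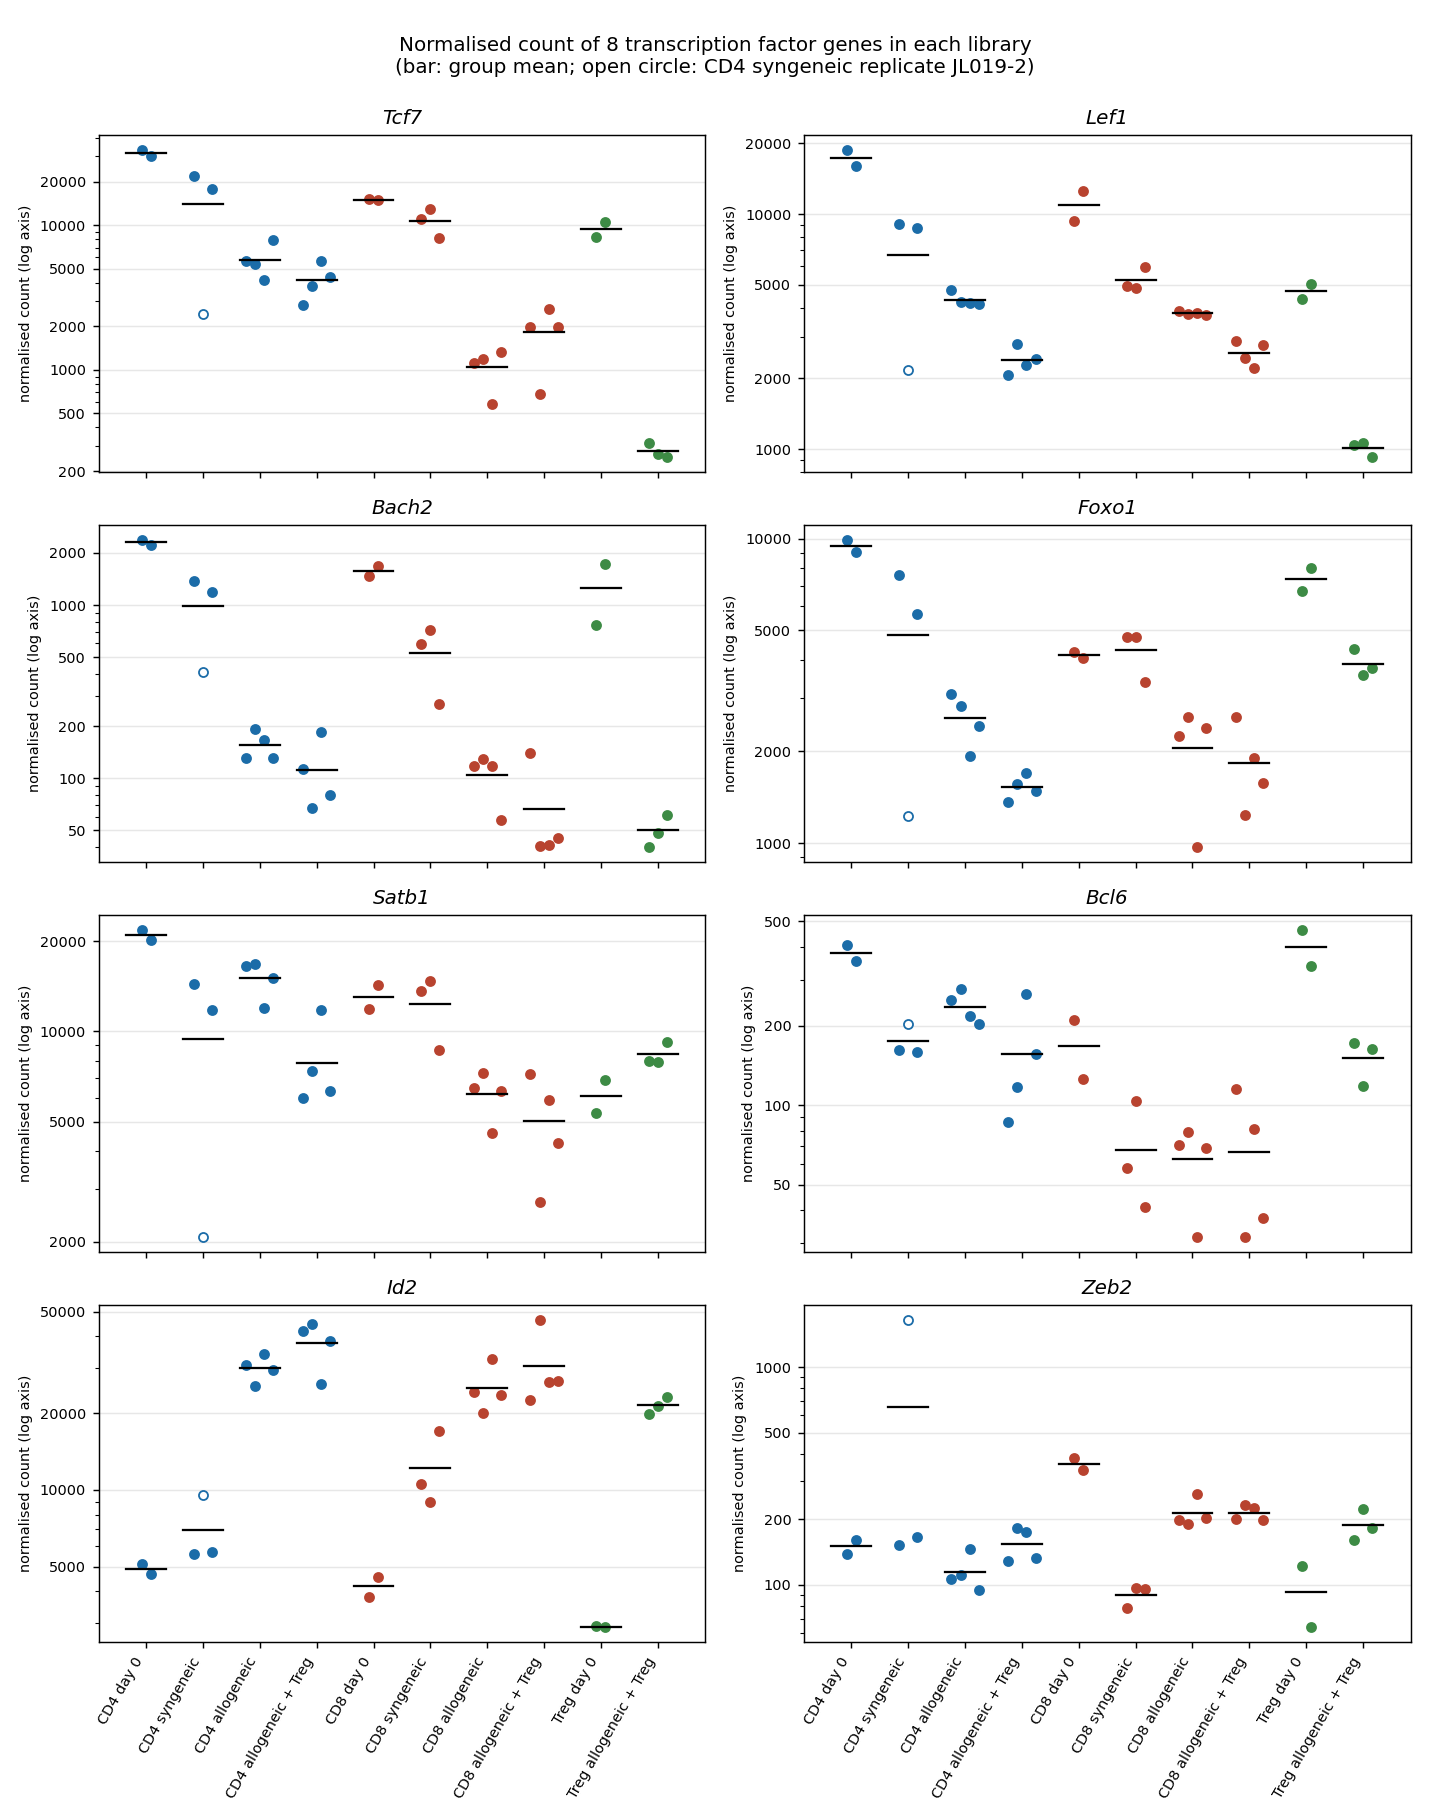
Normalised count (log axis) of each gene in each of the 31 libraries by cell type and arm; points are libraries, bars are group means, and the open circle is CD4 syngeneic replicate JL019-2. Tcf7 spans 250 to 33054 and is lowest in the 3 Treg libraries after transplantation, while Id2 runs the other way between day 0 and the allogeneic arms.

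Before transplantation 5 of the 8 genes had their highest group mean of all 10 groups in resting CD4 cells, namely Tcf7, Lef1, Bach2, Foxo1 and Satb1. Tcf7, the HMG-box factor that sustains naive and stem-like T cells, was 33054 and 29899 in the CD4 day 0 libraries. It was 15101 and 14872 in CD8 cells and 8306 and 10618 in the libraries labelled Treg, so that the 3 cell types did not overlap. Bach2, a repressor that occupies AP-1 sites and restrains effector genes, was 2369 and 2236 in CD4, 1462 and 1689 in CD8 and 768 and 1726 in Treg cells, the last pair spanning the CD8 values. Bcl6 had its highest group mean in the day 0 Treg libraries (462 and 337), which spanned those of CD4 cells (407 and 352). Id2, the inhibitor of E proteins, was lowest of all groups in day 0 Treg cells (2919.7 and 2899.6), below CD8 (3811 and 4573) and CD4 cells (5109 and 4675). Zeb2 was highest in day 0 CD8 cells (382 and 338) of all groups once CD4 syngeneic replicate JL019-2 was set aside. With 2 libraries a group, limma (Benjamini-Hochberg over all genes, adjusted p under 0.05) called 1 of 8 genes between Treg and CD4 cells before transplantation (3.89% of all genes were called), Lef1, at -1.88 ± 0.38 (log2 change ± SE on log2 of the normalised count + 1, adjusted p = 0.00261). Between CD8 and CD4 cells it called 0 of 8 (3.32% of all genes), with 3 at an unadjusted p under 0.05 (11.8% of all genes). Without replicate JL019-2 the counts were 3 (5.90% of all genes; Tcf7, Lef1 and Satb1 lower in Treg cells) and 3 (5.10%; Lef1 and Foxo1 lower and Zeb2 higher in CD8 cells). The summed B cell markers were 1853 to 2530 in CD8 and 464 to 632 in CD4 cells on day 0, the erythroid markers 25478 to 28180 and 656 to 1256, the myeloid ones 4005 to 5564 and 920 to 1877 and those of NK cells 555 to 615 and 376 to 403. In day 0 Treg cells these sums were 919 to 1044, 113 to 434, 2823 to 3678 and 217 to 373, none overlapping CD4 cells, and the part of these markers was not tested. Without CD4 day 0 replicate JL019 no gene was called between Treg and CD4 cells. That count was 2 without CD4 syngeneic replicate JL019-1 or CD8 Treg-treated replicate JL019-2.

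From day 0 to day 6 in allogeneic recipients Tcf7, Lef1 and Bach2 fell in CD4 and in CD8 cells, and Id2 rose in both. In CD4 cells Bach2 was 131, 191, 166 and 130 in the 4 allogeneic libraries, far under the day 0 pair, a log2 change of -3.91 ± 0.51 (limma adjusted p = 1.26e-06). Tcf7 was 5629, 5408.5, 4203 and 7862, a change of -2.48 ± 0.56 (adjusted p = 0.00145). Lef1, the close relative of TCF1, was 4744, 4214, 4181 and 4130.1 against 18692 and 16031 on day 0, a change of -2.01 ± 0.33 (adjusted p = 3.10e-05). None of these groups overlapped (55.1% of all genes did not), and the lowest allogeneic CD4 library still held 4203 normalised counts of Tcf7. Foxo1, the forkhead factor that drives the homing receptor Ccr7, was 3087, 2830 (JL019), 1926 and 2432 (JL027) against 9885 and 9047, a change of -1.90 ± 0.45 (adjusted p = 0.00205). Id2 was 30785, 25649, 34068 and 29535.5, above the day 0 pair in every library, a rise of 2.61 ± 0.28 or 6.11-fold (adjusted p = 3.87e-08). In all, 5 of 8 genes passed in CD4 cells (24.0% of all genes did), the same 5 without replicate JL019-2 (27.0%). The log2 changes of Bcl6 (-0.68), Zeb2 (-0.40) and Satb1 (-0.48) did not pass. With the library mean as covariate the change of Tcf7 was -1.51 (adjusted p = 0.00553) and that of Foxo1 -1.23 (0.0114). The summed myeloid markers were 920 to 1877 on day 0 and 5503 to 11152 in allogeneic CD4 cells and the B cell markers 464 to 632 and 214 to 275 and the NK cell markers 376 to 403 and 139 to 168, and their part was not tested.

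In CD8 cells Tcf7 was 1115, 1191, 583 and 1324 in the 4 allogeneic libraries, a change of -3.90 ± 0.56 or 14.9-fold (limma adjusted p = 4.86e-06). Bach2 was 117, 129, 117 and 57.3, a change of -3.96 ± 0.51 (adjusted p = 1.05e-06). Both genes lay below the day 0 CD8 libraries in all 4. Lef1 was 3886, 3739.6, 3786 and 3714 against 9361 and 12508, a change of -1.52 ± 0.33 (adjusted p = 0.000748). Id2 was 24215, 19973, 32651 and 23526, a rise of 2.56 ± 0.28 (adjusted p = 5.69e-08). Bcl6, the repressor that follicular helper cells need, was 70.7, 79.1, 31.7 and 68.7 against 210 and 126, a change of -1.44 ± 0.46 (adjusted p = 0.0194). These 5 of 8 genes passed (30.4% of all genes). Without replicate JL019-2 all 8 did (34.1% of all genes), 7 of them lower (16.2% were called lower), with Foxo1 at -1.12 ± 0.30 (adjusted p = 0.00483), Satb1 at -1.09 ± 0.30 (0.00596) and Zeb2 at -0.76 ± 0.26 (0.0232). The median log2 change of all genes from day 0 to allogeneic CD8 cells was -0.13, a shift that stands beneath each of these values. Within the 2 title prefixes, JL019 and JL027, the CD4 change of Tcf7 was -2.58 and -2.38 and the CD8 change -3.71 and -4.08, so that each set of libraries gave the fall by itself. The Bcl6 call was lost with quantile normalisation (-1.09, adjusted p = 0.0810) and with the library mean as covariate (-0.60, 0.295), where Tcf7 stood at -2.60 (3.37e-05). Markers of other cells moved in the same comparison without overlap. The B cell sum, whose cells also express Bach2 and Bcl6, was 1853 to 2530 on day 0 and 737 to 1005 in allogeneic CD8 cells, with the defining Ms4a1 at 202 and 331 against 0.92 to 12.9, and the erythroid sum was 25478 to 28180 and 493 to 12822. The myeloid sum was higher in allogeneic cells, at 4005 to 5564 on day 0 and 6607 to 10734. Their part in these changes was not tested.

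Comparison with the syngeneic controls asks what the mismatch adds to transplantation itself. In CD8 cells Tcf7 was 11003, 13003 and 8215 in syngeneic recipients, far above the 583 to 1324 of the allogeneic arm. Its change between the arms was -3.39 ± 0.49, or 10.5-fold (limma adjusted p = 8.49e-06). Bach2 was 598, 717 and 268 against the allogeneic 57.3 to 129, a change of -2.27 ± 0.45 (adjusted p = 0.000487). Foxo1 was 4747, 4762 and 3383 against 2242, 2596, 971 and 2383, a change of -1.15 ± 0.39 (adjusted p = 0.0373). Id2 was 10577, 8941 and 17061 in syngeneic CD8 cells, all below the allogeneic libraries, a rise of 1.07 ± 0.25 (adjusted p = 0.00201). These were 4 of 8 genes (21.1% of all genes). Without replicate JL019-2, which is a CD4 library and enters here only through the shared error, 7 of 8 passed (25.0% of all genes), adding Lef1 (-0.47 ± 0.15, adjusted p = 0.0185), Satb1 (-0.98 ± 0.26, 0.00687) and Zeb2 (1.23 ± 0.23, 0.000155). Zeb2 was 78.1, 96.8 and 95.4 in syngeneic CD8 cells and 199, 190.2, 261 and 204 in allogeneic ones, with no overlap, yet both groups lay below the day 0 CD8 pair. The summed myeloid markers were 38412 to 62838 in syngeneic and 6607 to 10734 in allogeneic CD8 cells and the NK cell markers 845 to 1536 and 363 to 701, with no overlap, and their part in these changes was not tested.

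In CD4 cells the same contrast depended on the library that stood apart. Tcf7 was 21962 and 17815 in CD4 syngeneic replicates JL019-1 and JL027 and 2423 in JL019-2, below every allogeneic CD4 library. Lef1 was 9077, 8749 and 2165 and Foxo1 7621, 5666 and 1230.4, in the same order. Zeb2, a gene that myeloid cells also express, ran the opposite way, at 152, 166 and 1641, as the plot of Zeb2 against myeloid genes shows. With all libraries 3 of 8 genes passed (14.6% of all genes): Bach2 (-2.51 ± 0.45, adjusted p = 0.000247), Zeb2 (-1.61 ± 0.47, 0.0182) and Id2 (2.15 ± 0.25, 4.52e-07). Without JL019-2, which left 2 syngeneic libraries, 5 of 8 passed (10.9% of all genes). Bach2 (-3.06 ± 0.46, adjusted p = 3.13e-05) and Id2 (2.40 ± 0.26, 2.02e-07) held, Tcf7 (-1.81 ± 0.38, 0.00139), Lef1 (-1.05 ± 0.16, 5.24e-05) and Foxo1 (-1.38 ± 0.30, 0.00208) were added, and Zeb2 no longer passed (-0.48 ± 0.26, 0.294). With all libraries Zeb2 was also lost with array weights (-0.67, 0.0539) and in a fit of only the 2 groups (0.267). Satb1, an organiser of chromatin loops at T cell genes, was 14383, 11766 and 2071 in syngeneic and 16545, 16737, 12007 and 15099 in allogeneic CD4 cells, and passed in neither fit (adjusted p = 0.0828 and 0.812). The summed myeloid markers were higher in the other CD4 syngeneic libraries as well (79039 and 85233) than in the allogeneic ones (5503 to 11152), and their part in these changes was not tested.

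**Figure D2:**
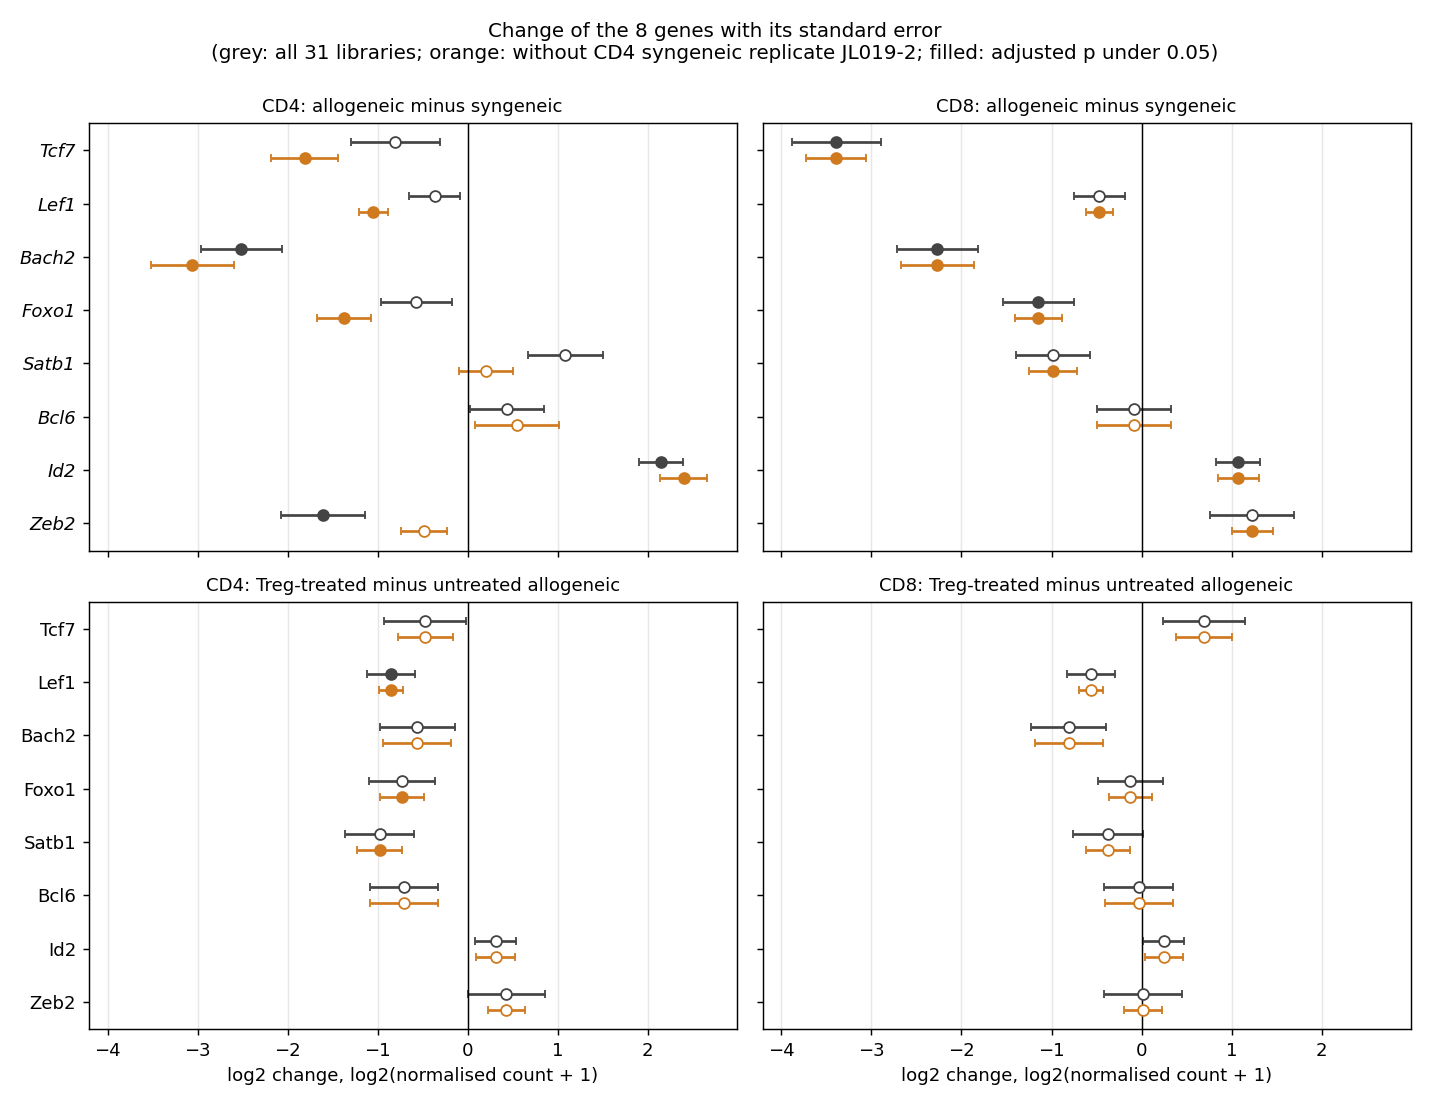
Log2 change with its standard error (limma) of each gene between allogeneic and syngeneic recipients (top) and between Treg-treated and untreated allogeneic recipients (bottom) in CD4 (left) and CD8 cells (right). Grey points use all 31 libraries, orange points leave out CD4 syngeneic replicate JL019-2, and filled points passed an adjusted p of 0.05; Tcf7 in CD4 cells moves from -0.80 to -1.81 between the fits, and in CD8 cells it is -3.39 in both.

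**Figure D3:**
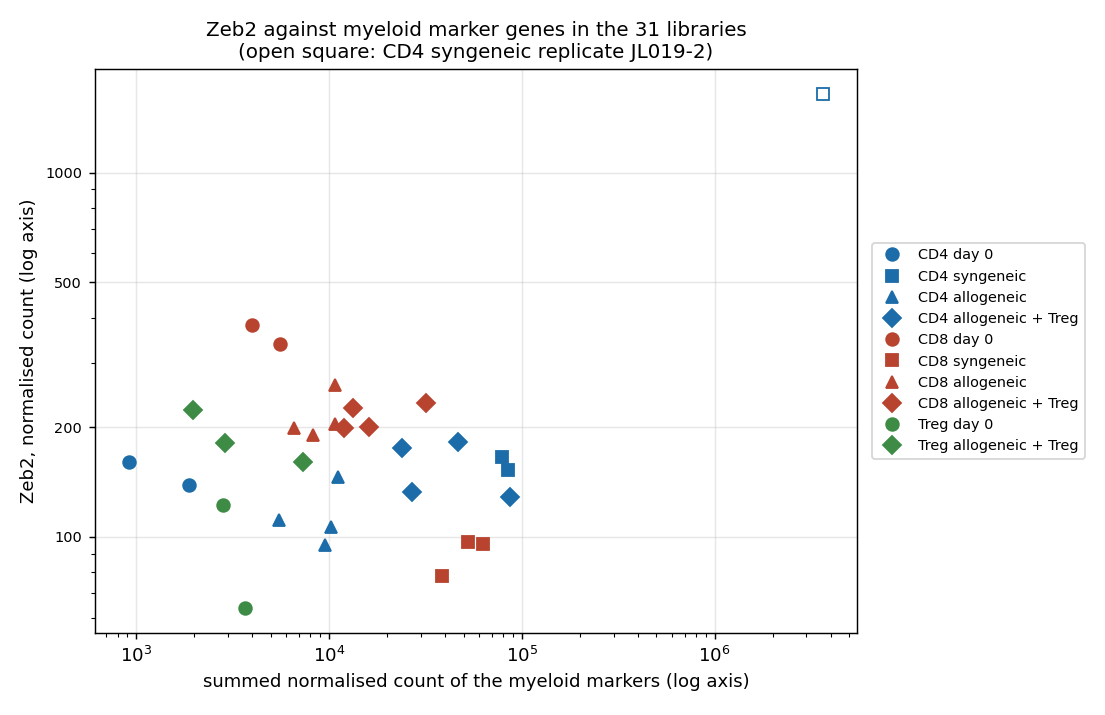
Normalised count of Zeb2 against the summed normalised count of 12 myeloid marker genes, both on log axes, in the 31 libraries. CD4 syngeneic replicate JL019-2 (open square) lies apart at 1641 and 3.63e+06, and the other 30 libraries lie between 64.0 and 382 for Zeb2.

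Allogeneic CD8 cells held far less Tcf7 than allogeneic CD4 cells, the CD8 libraries reaching 1324 and the CD4 libraries starting at 4203. That difference was -2.48 ± 0.46 on the log2 scale (limma adjusted p = 0.000764), and it was -2.26 and -2.71 within the 2 prefixes. Bcl6 was 250.01, 276, 218 and 204 in CD4 and at most 79.1 in CD8 cells, a difference of -1.97 ± 0.38 (adjusted p = 0.00120). Satb1 was 6508, 7292, 4597 and 6331 in CD8 cells, all below the CD4 libraries (12007 to 16737), a difference of -1.30 ± 0.38 (adjusted p = 0.0409). These were 3 of 8 genes (6.15% of all genes). Zeb2 joined them without replicate JL019-2, higher in CD8 cells at 0.90 ± 0.21 (adjusted p = 0.00569), giving 4 of 8 (8.29%). Satb1 fell short of the threshold when any of 7 of the 8 allogeneic libraries was left out, with a difference of -1.16 to -1.38. Lef1 in contrast was 4130.1 to 4744 in CD4 and 3714 to 3886 in CD8 cells, a difference of -0.19 ± 0.27 (adjusted p = 0.785). The titles name no animal, and a recipient label here means a shared title prefix, arm and, where given, number. Where CD4 and CD8 libraries of one recipient label were blocked together, 5 of 8 genes passed, and 25.8% of all genes did. The summed B cell markers were 737 to 1005 in CD8 and 214 to 275 in CD4 cells and the NK cell markers 363 to 701 and 139 to 168, and their part was not tested.

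The difference between the allogeneic effects in the 2 cell types (CD8 minus CD4, each against its syngeneic control) was tested as an interaction. With all libraries 3 of 8 genes passed (4.65% of all genes): Tcf7 at -2.59 ± 0.70 (limma adjusted p = 0.0285), Satb1 at -2.07 ± 0.59 (0.0394) and Zeb2 at 2.84 ± 0.66 (0.00965). Without replicate JL019-2, 2 of 8 passed (3.97% of all genes), Zeb2 at 1.71 ± 0.34 (adjusted p = 0.00221) and Id2 at -1.33 ± 0.35 (0.0238). In that fit Tcf7 was -1.58 ± 0.50 (adjusted p = 0.0816) and Satb1 -1.18 ± 0.40 (0.110). Zeb2 was thus the gene that passed in both fits, with an allogeneic effect in the second of 1.23 ± 0.23 in CD8 and -0.48 ± 0.26 in CD4 cells. The count was 1 without CD4 allogeneic replicate JL027-2, CD8 allogeneic replicate JL027-1 or CD8 syngeneic replicate JL019-1, and 0 with the recipient block or in a fit of only the 4 groups compared. With quantile normalisation Tcf7 (adjusted p = 0.0559) and Satb1 (0.0848) were lost.

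Between Treg-treated and untreated recipients 1 of 8 genes passed in CD4 cells, Lef1, against 22.2% of all genes, and the call was lost under other scalings. Lef1 was 2069, 2808, 2289 and 2425 in Treg-treated CD4 cells, all below the untreated allogeneic libraries, a log2 difference of -0.85 ± 0.27 (limma adjusted p = 0.0254). With libraries centred on their median the difference was -0.65 (adjusted p = 0.0790), and with the library mean as covariate -0.66 (0.159). It was also under a log2 limit of 1. Without replicate JL019-2, 3 of 8 passed (28.6% of all genes): Lef1 (-0.85 ± 0.13, adjusted p = 0.000525), Foxo1 (-0.73 ± 0.24, 0.0268) and Satb1 (-0.98 ± 0.25, 0.00724). Foxo1 was 1364, 1559.7, 1701 and 1485 in Treg-treated CD4 cells, and its highest library lay under the lowest untreated one. Satb1 was 6025, 7404, 11761 and 6333, where JL027-1 came close to the lowest untreated library (12007). Within the prefixes the Satb1 difference was -1.32 in JL019 and -0.64 in JL027, and that of Foxo1 -1.02 and -0.45. Lef1 differed by -0.89 and -0.82. Tcf7 was 2825, 3833, 5670.4 and 4422 and overlapped the untreated values, with a difference of -0.47 ± 0.46 (adjusted p = 0.486). The count of called genes was 0 when CD4 allogeneic replicate JL019-1 or JL019-2 or CD4 Treg-treated replicate JL019-1, JL019-2 or JL027-2 was left out. Leaving out library JL027-1 of the Treg-treated CD4 cells gave 3, and leaving out JL019-1 of the syngeneic CD4 cells or JL019-2 of the Treg-treated CD8 cells gave 2. Myeloid markers summed to 23872 to 87234 in Treg-treated and 5503 to 11152 in untreated CD4 cells, and the mean normalised count per gene ran from 1608 to 2118 against 1504 to 1669. Erythroid markers summed to 5143 and 4710 against 438 and 418 in JL019, and to 44396 and 54933 against 7496 and 9656 in JL027. Cd4 was 9108, 8722 and 9370 in Treg-treated replicates JL019-1, JL019-2 and JL027-2 and 17587 in JL027-1. Untreated libraries held 16706 to 21480.5. Cd3g was 67781, 76375, 57038 and 35394 in the same order, against 24334 to 33735. The part of these shifts in the differences was not tested.

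In CD8 cells none of the 8 genes passed between Treg-treated and untreated recipients in limma (0.0657% of all genes did), with or without replicate JL019-2 (0.466%). At an unadjusted p under 0.05 there was 1 with all libraries (11.1% of all genes) and 3 without that one (14.2%). Tcf7 was 1975, 679, 2628 and 1989 in Treg-treated CD8 cells. Of these 3 lay above all untreated libraries and JL019-2 lay among them, a difference of 0.69 ± 0.46 (adjusted p = 0.551) that was 0.01 within JL019 and 1.38 within JL027. Lef1 was 2872, 2443, 2210.4 and 2774, all below the untreated CD8 libraries, a difference of -0.56 ± 0.27 (adjusted p = 0.441, and 0.0560 without CD4 syngeneic replicate JL019-2). It was the 1 gene of 8 whose groups did not overlap (4.89% of all genes did not). The summed myeloid markers did not overlap either, at 11933 to 31983 in Treg-treated and 6607 to 10734 in untreated CD8 cells, and their part was not tested. CD8 Treg-treated replicate JL019-2 also had the lowest Satb1 (2699), Foxo1 (1232) and Bcl6 (31.7) and the highest Id2 (46298) of its group. The difference of the Treg effects between CD8 and CD4 cells passed for 0 of 8 genes (0.00597% of all genes with every library, 0.0119% without CD4 syngeneic replicate JL019-2), with 0 and 1 at an unadjusted p under 0.05 (2.57% and 3.90% of all genes), and was 1.17 ± 0.65 for Tcf7. Against the syngeneic arm, Treg-treated CD8 cells had 6 of 8 genes past the test (18.2% of all genes) and 7 without JL019-2 (21.2%), and Treg-treated CD4 cells 4 (16.7%) and 5 (27.6%). In CD8 cells the summed myeloid markers were 11933 to 31983 in Treg-treated and 38412 to 62838 in syngeneic recipients and the NK cell markers 138 to 385 and 845 to 1536, with no overlap, and their part was not tested. In a fit of only the 2 CD4 groups with all libraries Lef1 (adjusted p = 0.206) and Foxo1 (0.236) were lost from these 4. In both cell types Bach2 had the lowest of these values, -3.08 in each, and Tcf7 was -2.70 ± 0.49 in CD8 cells (adjusted p = 0.000180).

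Treg recovered from the recipients had the lowest Tcf7, Lef1 and Bach2 of all 10 groups. Tcf7 was 311, 261 and 250.1 in these 3 libraries, against 8306 and 10618 in the libraries labelled Treg before transplantation, a change of -5.10 ± 0.59 or 34.3-fold (limma adjusted p = 4.80e-07). Bach2 was 40.0, 48.5 and 61.6 against 768 and 1726, a change of -4.52 ± 0.54 (adjusted p = 7.97e-07). Lef1 was 1044, 1059 and 926 against 4353 and 5060, a change of -2.22 ± 0.34 (adjusted p = 3.44e-05). Id2 was 19843, 21431 and 23048, a rise of 2.88 ± 0.29 or 7.35-fold (adjusted p = 6.99e-08). These 4 of 8 genes passed (13.3% of all genes). Without CD4 syngeneic replicate JL019-2, 6 did (16.3%), with Foxo1 lower (-0.92 ± 0.31, adjusted p = 0.0435) and Zeb2 higher (1.07 ± 0.27, 0.00595). The groups did not overlap for any of the 8 genes (50.9% of all genes did not). Satb1 was 8006, 7929.8 and 9228 after transplantation and 5351 and 6878 before, higher in each library, but the difference of 0.46 ± 0.50 did not pass (adjusted p = 0.622). The summed erythroid markers were 113 to 434 before and 1444 to 44234 after and the B cell markers 919 to 1044 and 541 to 811 and the NK cell markers 217 to 373 and 40.2 to 64.6, and their part was not tested.

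Beside CD4 cells of the same Treg-treated arm, the recovered Treg had less Tcf7 and Lef1. The Tcf7 difference was -3.89 ± 0.49 or 14.8-fold (limma adjusted p = 2.77e-06), and that of Lef1 -1.24 ± 0.29 (0.00234). Foxo1 was 4353, 3561 and 3746 in Treg, all above the CD4 range of 1364 to 1701, a difference of 1.35 ± 0.39 (adjusted p = 0.0120). Id2 was lower in Treg, whose highest library (23048) lay under the lowest CD4 one (26111), by -0.79 ± 0.25 (adjusted p = 0.0175). In all 4 of 8 genes passed (30.0% of all genes), and 5 without CD4 syngeneic replicate JL019-2 (35.0%), adding Bach2 at -1.05 ± 0.41 (adjusted p = 0.0471). The median log2 difference of all genes here was 0.14 in favour of Treg, which the values stand upon. The count was 2 without Treg replicate JL019-1, where Foxo1 (1.26) and Id2 (-0.74) missed the threshold. With the library mean as covariate Foxo1 was 0.74 (adjusted p = 0.120) and Id2 -0.31 (0.110), and both calls were lost; Id2 was also -0.44 with quantile normalisation (0.0213). The summed myeloid markers were 1970 to 7301 in Treg and 23872 to 87234 in CD4 cells, the B cell ones 541 to 811 and 207 to 363 and those of NK cells 40.2 to 64.6 and 106 to 199, with no overlap, and their part was not tested. Satb1 and Bcl6 overlapped between these groups (adjusted p = 0.818 and 0.925).

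Several of the genes also differed between syngeneic recipients and day 0. In CD8 cells Lef1 (4949, 4859.98 and 5946), Bach2, Bcl6 (57.8, 104 and 41.2) and Zeb2 were lower than on day 0 and Id2 was higher, 5 of 8 genes (24.2% of all genes, and 29.4% without replicate JL019-2, with 5 of 8). The changes were -1.05 ± 0.34 for Lef1, -1.69 ± 0.54 for Bach2, -1.36 ± 0.49 for Bcl6, -1.99 ± 0.56 for Zeb2 and 1.49 ± 0.29 for Id2 (limma adjusted p = 0.0281, 0.0253, 0.0435, 0.0122 and 0.000823). Tcf7 (-0.51 ± 0.59) and Foxo1 (0.03 ± 0.47) did not pass there, and all genes had a median log2 change of -0.10. With the library mean as covariate the calls of Lef1 (-0.67, adjusted p = 0.223), Bach2 (-0.54, 0.487) and Bcl6 (-0.36, 0.624) were lost and Id2 was 0.65 (0.0101). The library mean itself was 1227 to 1484 on day 0 and 1624 to 2119 in syngeneic CD8 cells. This covariate thus cannot be told apart from the comparison. Lef1 was also lost with median centring (0.0731), and Bcl6 with quantile normalisation (0.165) and in a fit of only the 2 groups (0.0832), and Id2 was 0.98 with quantile normalisation. The summed myeloid markers were 4005 to 5564 on day 0 and 38412 to 62838 in syngeneic CD8 cells, the erythroid ones 25478 to 28180 and 2791 to 9452, and Ms4a1 202 and 331 against 9.29 to 18.1. The NK cell sum was 555 to 615 on day 0 and 845 to 1536 in syngeneic CD8 cells. None of these overlapped except that the B cell sum touched (1853 to 2530 and 995 to 1856), and their part was not tested. The count was 1 without CD8 day 0 replicate JL019, and 3 without CD8 day 0 replicate JL027 or CD8 syngeneic replicate JL019-1 or JL027. In CD4 cells 2 of 8 genes passed with all libraries (13.0% of all genes), Lef1 (-1.64 ± 0.34, adjusted p = 0.00142) and Satb1 (-1.57 ± 0.50, 0.0352). Both were lost in a fit of only the 2 groups (adjusted p = 0.326 and 0.419), Satb1 also with the library mean as covariate (-0.59, 0.338), and with array weights they were -1.04 and -0.80. Here the myeloid sum was 920 to 1877 on day 0 and 79039 or more in every syngeneic CD4 library and the erythroid sum 656 to 1256 and 4094 or more. Outside CD4 syngeneic replicate JL019-2 the B cell sum was 464 to 632 on day 0 and 168 and 202 in syngeneic CD4 cells. The NK cell sum was 376 to 403 on day 0 and 50.6 and 53.6 in those libraries. The part of these markers was not tested. Without JL019-2 only Lef1 passed (-0.96 ± 0.19, 0.000948; 7.93% of all genes), and the count was 6 without JL019-1 and 5 without JL027 of the same group. It was also 1 without CD4 day 0 replicate JL019 or JL027.

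Between CD8 and CD4 cells of syngeneic recipients 3 of 8 passed (12.0% of all genes), Bcl6 and Zeb2 lower and Id2 higher in CD8 cells by limma. With the recipient label as block none of the 3 passed (adjusted p = 0.267, 0.363 and 0.477), nor in a fit of only the 2 groups (0.191, 0.339 and 0.331). Bcl6 was also lost with quantile normalisation (0.164), where Id2 was 0.49, and Zeb2 was -1.14 with array weights. Those weights gave CD8 syngeneic replicate JL019-1 113, against at most 2.08 in any other library. Between these groups the myeloid sum was 38412 to 62838 in CD8 and 79039 or more in CD4 cells. Outside CD4 syngeneic replicate JL019-2 the NK cell sum was 845 to 1536 in CD8 and 50.6 and 53.6 in CD4 cells. The B cell sum was 995 to 1856 in CD8 and 168 and 202 in those CD4 libraries. The part of these markers was not tested. Without JL019-2 the count was 2 (9.55%), Lef1 lower and Id2 higher. Without CD8 syngeneic replicate JL019-1 or JL027 it was 1. In Treg-treated recipients Bcl6 alone was lower in CD8 than in CD4 cells (-1.30 ± 0.38, adjusted p = 0.0280; 9.61% of all genes). This call was lost with the recipient label as block (adjusted p = 0.0944), in a fit of only the 2 groups (0.201) and with array weights (-0.76, 0.0561). The summed B cell markers were 868 to 1976 in CD8 and 207 to 363 in CD4 cells, and their part was not tested. Tcf7 joined it without CD4 syngeneic replicate JL019-2 (-1.32 ± 0.31, 0.00411; 12.5%). That count was 0 without CD4 Treg-treated replicate JL027-1 or JL027-2 or CD8 Treg-treated replicate JL019-2 or JL027-2, and 2 without CD4 syngeneic replicate JL019-1.

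Across the 10 group means Tcf7 ranged 115-fold, Bach2 46.0-fold, Lef1 17.2-fold and Id2 13.0-fold, while Bcl6 (6.38-fold), Foxo1 (6.20-fold) and Satb1 (4.17-fold) varied less. Zeb2 ranged 7.25-fold, and 3.99-fold without replicate JL019-2. Neighbouring groups in the order of Tcf7 did not overlap at 4 places: CD4 day 0 above CD8 day 0, day 0 Treg above allogeneic CD4, Treg-treated CD4 above Treg-treated CD8, and allogeneic CD8 above recovered Treg. Without JL019-2, CD4 syngeneic cells also stood apart from both day 0 groups beside them. For Bach2 the 5 groups from mismatched recipients were the lowest 5, and they overlapped one with the next. For Id2 the same 5 groups were the highest 5, with a gap between the lowest (recovered Treg) and CD8 syngeneic cells. Pearson's r of the log2 group means was 0.895 between Tcf7 and Lef1, 0.889 between Tcf7 and Bach2 and -0.916 between Bach2 and Id2 over these 10 groups, as a description, since all genes share the libraries and their scaling. In the plot of Tcf7 against Id2 the CD4, CD8 and Treg libraries of the mismatched arms lie at separate Tcf7 levels, and the Treg libraries lie below all CD4 libraries of those arms in Id2.

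**Figure D4:**
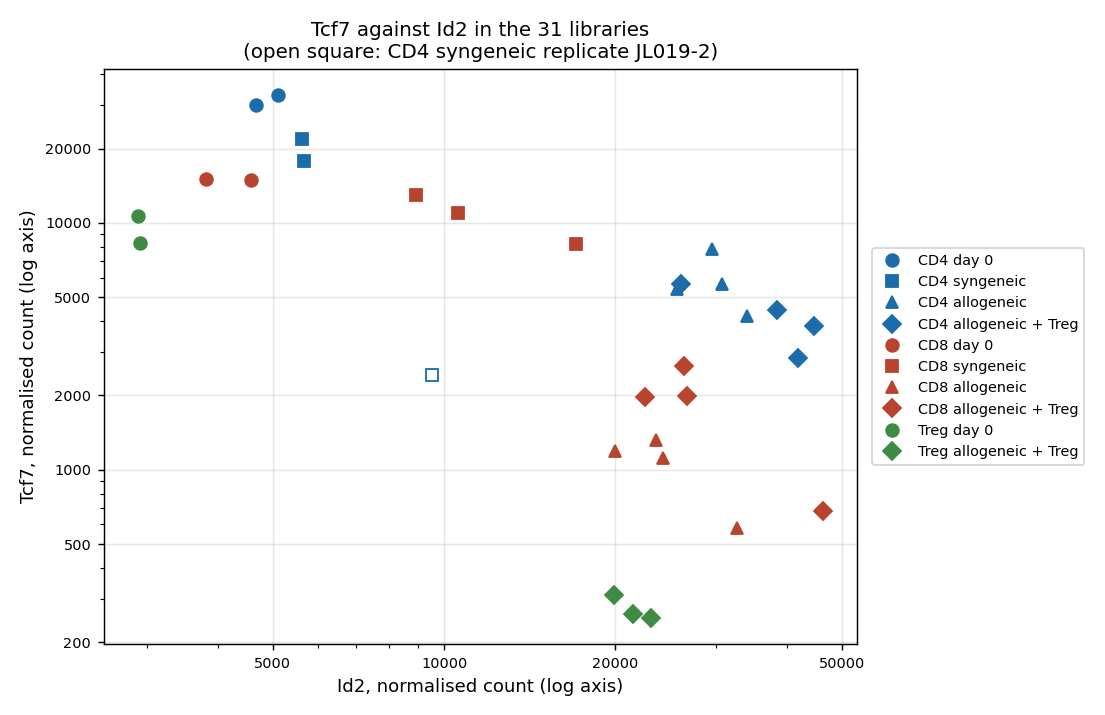
Normalised count of Tcf7 against that of Id2, both on log axes, in the 31 libraries; colour is the cell type, the symbol is the arm, and the open square is CD4 syngeneic replicate JL019-2. In mismatched recipients Id2 is 19843 or more in every library, while Tcf7 is 2825 to 7862 in CD4 cells, 583 to 2628 in CD8 cells and 250 to 311 in Treg.

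Of 9916 genes with a mean of at least 100 normalised counts (predicted genes, receptor segments, mitochondrial and ribosomal protein genes left out), those with group means most like Tcf7 over the 10 groups were Evl (r = 0.963), Bambi-ps1 (0.954) and Ears2 (0.953). For Lef1 they were Polrmt (0.971), Man2c1 (0.967) and Mccc1 (0.963). For Bach2 they were Otud1 (0.987), Cd2ap (0.983) and Apoe (0.980), rank 17 without replicate JL019-2 for the last, where Ccr7 took rank 3 (0.973). For Foxo1 they were Prickle3 (0.983, rank 22 without that library), Prpf38b (0.977) and Ppm1b (0.976), and for Id2 Dnajb12 (0.982), Wtap (0.980) and Cd2bp2 (0.974, rank 42 without it). Kdm5b led for Bcl6 (0.947), Mtfr1l for Satb1 (0.952, rank 8 without that library) and Atp6ap2 for Zeb2 (0.909).

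Genes that work beside the 8 factors were counted in allogeneic cells against day 0. Of all genes 14.4% rose and 9.61% fell in CD4 cells, and 16.3% rose and 14.2% fell in CD8 cells. Of 9 genes known as FOXO1 targets, 5 fell and none rose in CD4 cells, and 5 fell and none rose in CD8 cells, with medians of -1.32 and -1.83 against -0.04 and -0.13 over all genes. Ccr7, the receptor that guides T cells into lymph nodes, averaged 35406 normalised counts in CD4 cells on day 0 and 1169 in allogeneic recipients (-4.93 ± 0.47, limma adjusted p = 5.13e-09). Of 13 genes of naive or stem-like cells, 4 of which are also on the FOXO1 list, 7 fell in CD4 and 8 in CD8 cells and none rose. Of 14 partner factors, cofactors and relatives of the 8, 6 fell and 1 rose in CD4 cells and 6 fell in CD8 cells. Among them Id3, the sister of Id2 that marks memory precursors, fell from 2963 to 101 in CD8 cells (-4.86 ± 0.34, 1.73e-11) and from 3031 to 496 in CD4 cells (-2.62 ± 0.34, 1.17e-06). Of 14 effector genes 12 rose in CD4 and 13 in CD8 cells, with medians of 2.81 and 4.20. Gzmb, the cytotoxic protease granzyme B, went from 140 to 29473 in CD4 cells (7.68 ± 0.30, 5.87e-16). Of 8 follicular helper genes in the table (of 9 listed), 6 rose in CD4 cells, and 6 rose and Cxcr5 fell in CD8 cells. Without replicate JL019-2 more of the naive or stem-like genes passed, with 8 falling and 2 rising in CD4 cells and 10 falling in CD8 cells, and 1 effector gene fell in CD4 cells while 13 rose (15.8% of all genes rose and 11.2% fell in CD4 cells, 17.9% and 16.2% in CD8 cells).

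Against the syngeneic arm 10.4% of all genes rose and 10.7% fell in CD8 cells, where 10 of 13 naive or stem-like genes fell, 12 of 14 effector genes rose and 1 fell, 6 of 14 partner factors fell and 4 of 9 FOXO1 targets fell. Id3 fell from 3783 to 101 (-5.19 ± 0.30, limma adjusted p = 8.47e-13), and Eomes, the T-box factor of central memory CD8 cells, from 4918 to 1097 (-2.17 ± 0.26, 4.78e-07). Under Treg treatment Id3 rose in both cell types, from 496 to 1912 in CD4 (1.89 ± 0.28, 0.000681) and from 101 to 477 in CD8 cells (2.11 ± 0.28, 0.000361). It was the 1 gene of these lists that passed in CD8 cells with all libraries. Without CD4 syngeneic replicate JL019-2, 3 of 13 naive or stem-like genes rose there too, and 1 FOXO1 target and 1 effector gene fell (0.221% of all genes rose and 0.245% fell). In CD4 cells of Treg-treated recipients Dapl1 (2.23 ± 0.35, adjusted p = 0.00107) and Xcl1 (2.68 ± 0.46, 0.00241) rose, while S1pr1 fell (-1.25 ± 0.36, 0.0195). In all 4 of 13 naive or stem-like genes rose and 1 fell, and of 14 partner factors 1 rose and 4 fell (10.7% of all genes rose and 11.5% fell). Without CD4 syngeneic replicate JL019-2, 7 of the partner factors passed, 1 of them rising (28.6% of all genes passed in either direction). Prdm1, the gene of the repressor BLIMP1 that opposes BCL6, fell from 2051 to 801 (-1.37 ± 0.25, 0.00348). In the recovered Treg Id3 went from 3787 on day 0 to 89.8 (-5.42 ± 0.36, 5.71e-11), and of 13 naive or stem-like genes 8 fell and 1 rose (4.89% of all genes fell and 8.43% rose). Without CD4 syngeneic replicate JL019-2, 11 passed, 1 of them rising (16.3% of all genes passed).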

How the data were processed

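RNA was measured in 31 libraries of sorted donor T cells. The authors made full-length cDNA with the SMARTer v4 kit and libraries with Nextera XT, per the labels' protocols, and the submitters' processing notes name FastQC 0.11.7, kallisto and DESeq2 and the builds GRCm38 and mm10. The deposited signal is 1 table of normalised counts for 16741 genes, together with the authors' own mean signal, log2 fold change, p-value and score columns (standard error and test statistic), for which the file names no groups and which were not used. Raw depth is unknown: a common step made only 12.0% to 33.9% of values under 15 whole (tolerance 0.02), so no count test was run. The mean normalised count per gene ran from 1227 to 2385 across libraries, and the number of libraries limits the precision. TCR tables and 1 sample of TCR sequencing hold no value of these genes and were not analysed here.

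From the deposited values log2(value + 1) was computed, and limma 3.58.1 (R 4.3.3; trended, robust empirical Bayes) fitted 10 group means over all 31 libraries, with 19 comparisons and p-values adjusted by Benjamini-Hochberg over 16741 genes (threshold 0.05); a filter at a mean of 1 removed none. Fold changes on this scale understate the change of low genes. The script was tested on simulated data. The 8 genes and the lists beside them were chosen with earlier results of these data known; beyond the 8, up to 4 genes of a list with the lowest adjusted p are named, and 1 list gene is not reported here. Libraries were grouped by the labels. Same-numbered libraries were not paired: deviations of libraries with 1 recipient label correlated from -0.114 to 0.428 over 15 pairs, 9 of them over 0.1. Alternatives were another pseudocount, filter, normalisation, covariate, weights, block, sample set, fold limit and each library left out.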

Additional observations from a re-analysis of the deposited data

Results flagged for a closer look

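In 5 of 32 group and gene combinations with 4 libraries, 1 library lay far from the other 3 by Dixon's criterion, which chance gives in about 1 of 20. Lef1 was 4744 in CD4 allogeneic replicate JL019-1. Bach2 was 57.3 in CD8 allogeneic replicate JL027-2 and 139 in CD8 Treg-treated replicate JL019-1. Foxo1 was 971 and Bcl6 31.7 in CD8 allogeneic replicate JL027-1, low for both genes.

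The effect of the mismatch, allogeneic against syngeneic recipients, differed between CD8 and CD4 cells for 3 genes by the interaction in limma with all libraries. The difference, CD8 minus CD4 on the log2 scale, was -2.59 for Tcf7 (adjusted p = 0.0285), 2.84 for Zeb2 (0.00965) and -2.07 for Satb1 (0.0394). Without CD4 syngeneic replicate JL019-2 it was -1.58 for Tcf7 (adjusted p = 0.0816), 1.71 for Zeb2 (0.00221) and -1.18 for Satb1 (0.110). With all libraries and the recipient label as block none of Tcf7, Zeb2 and Satb1 passed (adjusted p = 0.135, 0.0922 and 0.177), nor in a fit of only the 4 groups compared (0.108, 0.0923 and 0.134).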

How the results depend on the processing

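Over the alternatives other than leaving out a library 1425 of 1568 values per gene and comparison kept direction and call, 40 lost and 99 gained the call, and 4 reversed (direction was judged where a call was made). Over all single libraries left out, 4554 of 4712 kept both, 98 lost, 60 gained and none reversed. The reversals were Satb1 in CD8 syngeneic cells against day 0 (1.20 with the library mean as covariate) and, with array weights, whose estimation stopped before its tolerance, Satb1 in Treg-treated against syngeneic CD4 cells (-0.87), Tcf7 in syngeneic CD8 against CD4 cells (-0.72) and Lef1 in the difference of allogeneic effects (0.59). CD8 syngeneic replicate JL019-1 had a weight of 113, against at most 2.08 in any other library. The weighted CD8 syngeneic level thus rests almost wholly on that library. The library mean was lower in every day 0 library than in any later library of its cell type. As a covariate it thus cannot be told apart from a comparison with day 0. The causes of the reversals were not tested.

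The share of all genes called is given for few of these settings or omitted libraries, and it moves with them too. For CD8 against CD4 cells in allogeneic recipients it was 6.15%, and 25.8% with the recipient block. The counts below, and those with 1 library left out here and above, are thus not results about the 8 genes in particular. The number of the 8 genes called moved as follows. For Treg-treated against allogeneic CD4 cells it was 1, and 0 with median centring, with the library mean as covariate or with a log2 change of at least 1, 2 with quantile normalisation, 3 with only the groups compared and 6 with array weights. For syngeneic against day 0 CD4 cells it was 2, and 6 with median centring, 5 with quantile normalisation, 1 with the covariate, 5 with weights and 0 with only the groups compared. For Treg against CD4 cells on day 0 it was 1, and 2 with either normalisation and 4 with the covariate, weights or only the groups compared. For CD8 against CD4 cells it was 0 on day 0, and 3 with weights and 4 with only the groups compared. In syngeneic recipients it was 3, and 6 with weights and 0 with only the groups compared or the recipient as replicate block. In allogeneic recipients it was 3, and 5 with weights or the recipient block. In Treg-treated recipients it was 1, and 2 with median centring or weights, 3 with the covariate and 0 with only the groups compared. With weights it was 5 (also 5 with the covariate) for allogeneic against syngeneic CD4 cells, 7 for CD8 cells, 1 for Treg-treated against allogeneic CD8 cells, 7 for recovered against day 0 Treg, and 5 and 2 for the differences of allogeneic and Treg effects. The difference of allogeneic effects, 3 in the report, gave 0 with only the groups compared or the recipient block. Treg-treated against syngeneic CD4 cells gave 2 with only the groups compared, and syngeneic against day 0 CD8 cells 3 with the covariate. With the prefix as replicate block no count moved by over 1.5 times.

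With 1 library left out the counts ranged from 3 to 5 (CD4) and 3 to 7 (CD8) for allogeneic against syngeneic, 0 to 3 and 0 to 0 for Treg-treated against allogeneic, 3 to 5 and 4 to 7 for Treg-treated against syngeneic, 1 to 6 and 1 to 5 for syngeneic against day 0, and 5 to 5 and 4 to 8 for allogeneic against day 0. They ranged from 4 to 6 for recovered against day 0 Treg, 0 to 3 and 2 to 5 for Treg against CD4 cells on day 0 and in recipients, and 0 to 3, 1 to 3, 2 to 4 and 0 to 2 for CD8 against CD4 cells on day 0 and in syngeneic, allogeneic and Treg-treated recipients. The 2 differences of effects ranged from 1 to 4 and 0 to 0. Deviations of libraries with the same prefix and number in another arm correlated from -0.342 to 0.369 over 40 pairs, 13 of them over 0.1.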
